A study of Rattus norvegicus with 6 samples.

Results

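Ribosomes are built in the nucleolus, where RNA polymerase I copies ribosomal DNA into a long precursor RNA. Small nucleolar ribonucleoproteins (snoRNPs) modify that RNA, and large sets of processing factors cut it, fold it and join it to ribosomal proteins as the precursors of the small and the large subunit. Cells that enter growth usually raise the genes of these factors together, and MYC is a well-known activator of many of them. The factors followed here are 50 such genes, taken from a fixed list of names. This list and the other gene lists below were chosen with earlier results of these data known, so their counts are description only. A listed gene counted as measured when a row of the deposited table carried exactly 1 gene symbol equal to it, and the row with the highest mean was used where several did. This gave 42 of the 50 genes, out of 14324 genes in all; Npm3, Dkc1, Wdr36, Utp20, Rrp12, Bysl, Pes1 and Nop2 were not analysed here.

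The samples were aortas of male Fisher 344 rats aged 1 to 2 months, either as freshly cut rings (day 0) or as rings kept for 1 day in collagen gel under serum-free EBM medium (day 1), with 3 biological replicates per group. No genetic change or drug was applied in either group. Each replicate pooled 4 to 6 rings or cultures, and a separate whole-transcript array was used for its RNA. Median log2 values were 5.87 to 5.95 over the 6 arrays, so their overall levels were close. The time in culture, the gel and the medium changed together between the groups and cannot be told apart. Nothing in the labels tells whether an animal gave rings to more than 1 pool, and the p-values therefore rest on the variation among these pools only.

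On day 1 the nucleolar factors were higher nearly throughout. By limma with Benjamini-Hochberg adjustment over all 14324 genes, 41 of the 42 measured factors rose and 0 fell; the remaining one, Nle1, was higher without passing an adjusted p of 0.05. At an unadjusted p under 0.05 the counts were also 41 and 0. Across all genes 48.3% had an adjusted p under 0.05, with 27.6% higher and 20.7% lower on day 1. By their mean over all 6 arrays the factors were all brighter than the median gene, and among the 7162 genes above that median 44.4% rose and 22.9% fell. On day 0 alone Rcl1 (6.33), Nip7 (6.44), Polr1a (6.53), Ddx10 (6.56), Rrs1 (6.63) and Nle1 (6.68) lay under that median (6.79). A rise itself thus helps a gene to count as brighter, and the brighter genes are not a background chosen independently of change. There were 33 factors that rose 1.5-fold or more, against 10.9% of all genes and 17.0% of the brighter ones. At least a doubling was seen in 7 factors (2-fold or more), against 4.13% of all genes. The median log2 change (day 1 minus day 0) of the 42 factors was 0.80, with a range of 0.24 to 1.42, and the median over all genes was -0.01 (0.13 over the brighter genes). The 3 day 1 arrays lay wholly above the 3 day 0 arrays in 41 factors, as they did in 31.4% of all genes. Averaged over the 42 factors, the log2 level was 7.85 to 7.92 in the day 0 arrays and 8.65 to 8.70 in the day 1 arrays, so no single array set the difference. In tissue RNA, more RNA of a gene per cell and more cells that express it cannot be told apart.

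**Figure D1:**
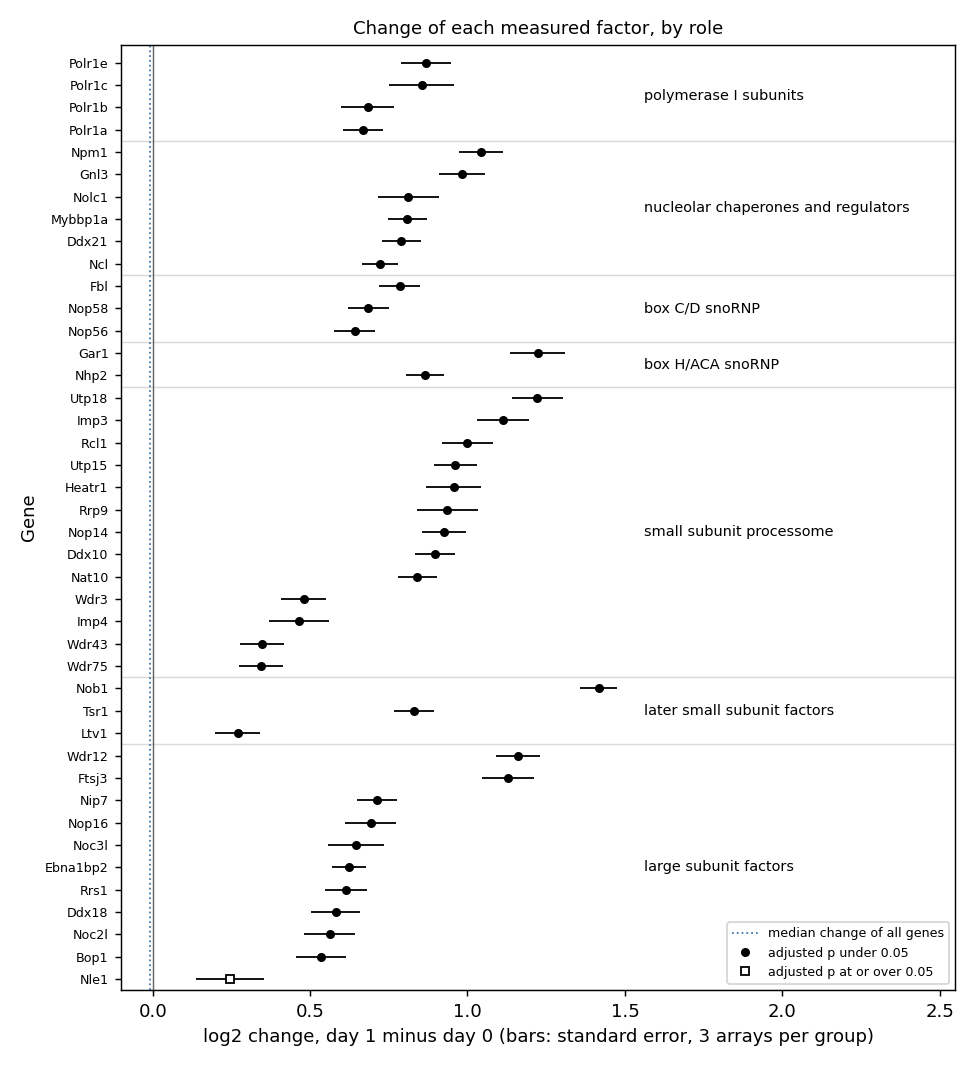
Log2 change from day 0 to day 1 (horizontal axis) of each of the 42 measured factors, grouped by role. Bars give the standard error from limma (3 arrays per group), in which each gene's spread is drawn toward a value shared by all genes. A dotted line marks the median change of all genes. Every point lies to the right of 0, from Nle1 at 0.24 (open square, adjusted p over 0.05) to Nob1 at 1.42.

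The promoters of these genes were described for what they share in sequence, since the list was drawn up without it. The RefSeq promoter table of build GRCr8 holds, for each gene start, 250 bases before it and 50 after it, and it has an entry for 47 of the 50 listed genes, 39 of them measured. The hexamer CACGTG, the E-box that MYC and related factors are known to bind, reads the same on both strands. It was present in 20 of the 47 promoters (42.6%), against 6.64% of all 27457 genes with a promoter in the table and 7.91% of those measured on these arrays. Among the 39 measured factors the share was 33.3%. The core CCGGAA of ETS family sites was read as CCGGAA or TTCCGG. It was present in 57.4% of the 47 and 56.4% of the 39 measured factors, in 15.8% of all genes and in 21.0% of those measured. Its share was similar in the measured genes of the wider list of ribosome assembly (60.6%) and of the ribosomal proteins (52.5%), where the E-box was present in 22.3% and 8.47%. The TATA motif, TATAAA or TTTATA, was present in 6.38% of the 47 and 2.56% of the 39 measured factors. Its share was 14.3% in all genes and 11.8% in those measured. Median GC content was 58.0% in the factors' promoters and 52.3% in all, and it was 58.0% in those of all measured genes too. Of the 20 promoters with an E-box, 9 had it only before the start, 9 only across or after the start and 2 on both sides. The 13 measured factors with an E-box had a median log2 change of 0.78 (0.24 to 1.22), and the 26 without had one of 0.86 (0.47 to 1.42). The median change was not higher in the factors with an E-box, but the ranges overlapped and the difference was not tested. Such a match is a description of letters and does not show binding.

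The promoter ends of the 4 most strongly raised factors with an E-box are shown because they let that element be seen in place. They are Utp18, a subunit of the small subunit processome, Rcl1, a factor needed for early cleavages on the small subunit path, Gnl3 (nucleostemin), a nucleolar GTPase of proliferating cells, and Nat10, an RNA cytidine acetyltransferase. Each is written from 5′ to 3′ in the direction of the gene, ends at the start or at the last base of a later E-box, and has the E-box in capitals.
Utp18, chr10:79335749-79335867, minus strand: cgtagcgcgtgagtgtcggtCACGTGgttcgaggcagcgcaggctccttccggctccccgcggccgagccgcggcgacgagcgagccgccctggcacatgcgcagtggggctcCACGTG
Rcl1, chr1:236238015-236238131, plus strand: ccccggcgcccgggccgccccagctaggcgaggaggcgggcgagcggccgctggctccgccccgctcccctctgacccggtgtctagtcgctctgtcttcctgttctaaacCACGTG
Gnl3, chr16:6219783-6219882, minus strand: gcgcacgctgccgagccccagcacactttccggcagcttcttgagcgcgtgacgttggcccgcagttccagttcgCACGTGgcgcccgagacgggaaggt
Nat10, chr3:110604813-110604929, minus strand: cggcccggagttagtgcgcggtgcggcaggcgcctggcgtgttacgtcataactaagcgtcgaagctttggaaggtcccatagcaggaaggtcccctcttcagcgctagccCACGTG
The E-box of Gnl3 began 25 bases before the start. Utp18 had 2, the first of which began 90 bases before the start and the second at base 4 after it. In Rcl1 and in Nat10 it began at base 12 after the start.

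The 4 listed subunits of RNA polymerase I, the enzyme that makes the ribosomal precursor RNA, rose by 1.59-fold to 1.83-fold. Polr1a, which encodes the largest subunit, had log2 values of 6.61, 6.51 and 6.46 in the day 0 arrays and of 7.21, 7.19 and 7.19 in the day 1 arrays. The day 1 values of Polr1a were nearly identical and lay above every day 0 value. Its change was 0.67 ± 0.06 by limma (adjusted p = 5.97e-05). Here and for every ± below, unless given as SD, the value is limma's moderated standard error of the log2 change (n = 3 per group). Moderation draws each gene's spread toward a value shared by all genes, so it is not the gene's own standard error alone. Polr1b, the second largest subunit, which shapes the catalytic centre with it, was at 7.35, 7.31 and 7.42 on day 0 and at 8.19, 7.90 and 8.03 on day 1 (0.68 ± 0.08, adjusted p = 2.71e-04). Polr1c is shared with RNA polymerase III, and its change of 0.85 ± 0.10 had the largest standard error of the 4. Its day 0 arrays spread from 6.94 to 7.27, and its day 1 arrays from 7.87 to 8.11. Polr1e, a subunit that takes part in initiation and elongation, rose by 0.87 ± 0.08. Of the other subunits, taken from the wider list given further on, Polr1d rose by 0.83 ± 0.07, Polr1f by 0.71 ± 0.08, Polr1h by 0.56 ± 0.06 and Polr1g by 0.37 ± 0.06. The 8 genes with a Polr1 symbol thus ranged from 0.37 to 0.87.

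The abundant nucleolar proteins and regulators rose in 6 of 6 measured cases, with a median change of 0.81. Npm1 (nucleophosmin), a chaperone that carries ribosomal particles and histones, was at 10.60, 10.55 and 10.57 on day 0 and at 11.50, 11.69 and 11.66 on day 1. The groups were far apart against their spread, and Npm1 rose by 1.04 ± 0.07, a 2.06-fold change (adjusted p = 9.52e-06). Npm1 had 4 rows with this symbol, whose changes were 1.04, 1.28, 1.00 and 0.98. Genes with near-identical copies in the genome can share probe signal, and whether these rows do was not tested. Ncl (nucleolin), which binds the nascent ribosomal RNA, was at 11.09, 11.07 and 11.07 on day 0 and at 11.78, 11.78 and 11.85 on day 1. Its day 0 SD of 0.01 was among the smallest of the factors, and it rose by 0.72 ± 0.06. Gnl3, whose promoter is shown above, was at 6.93, 6.86 and 6.98 on day 0 and at 7.80, 8.01 and 7.90 on day 1 (0.98 ± 0.07). Its 2 rows differed, since the dimmer one, at 2.92 on day 0, changed by 0.52. The RNA helicase gene Ddx21, which acts in ribosomal RNA transcription and processing, rose by 0.79 ± 0.06 and by 0.78 on its second row. Mybbp1a, a nucleolar binding partner of transcription factors, rose by 0.81 ± 0.06. Nolc1, a chaperone of snoRNPs, rose by 0.81 ± 0.10, and its day 1 arrays spread most in the group, from 8.29 to 8.60.

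**Figure D2:**
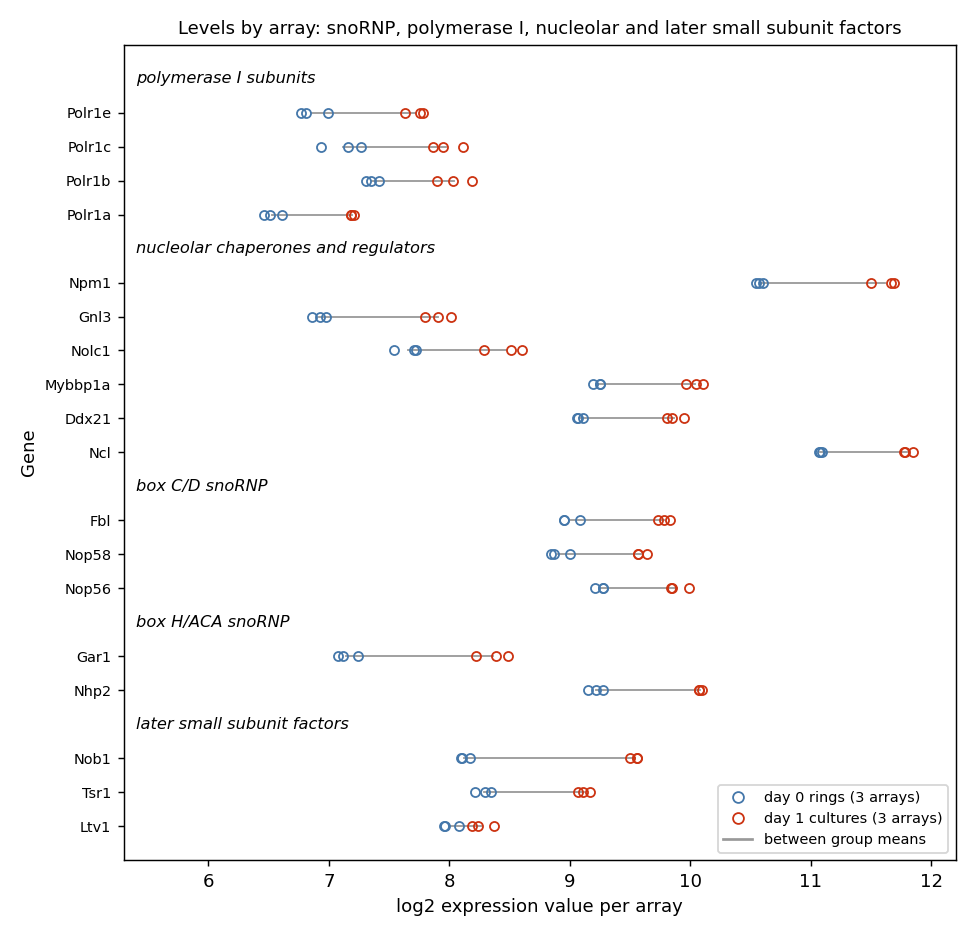
Log2 expression value in each array (horizontal axis) of the polymerase I subunits, nucleolar chaperones and regulators, snoRNP proteins and later small subunit factors, with 3 day 0 arrays in blue and 3 day 1 arrays in red and a line between the group means. The colours do not overlap for any of these genes, and the gap is widest for Nob1 (8.12 to 9.54) and narrowest for Ltv1 (7.999 to 8.27).

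Proteins of both snoRNP classes rose. Box C/D particles add methyl groups to ribosomal RNA, with Fbl (fibrillarin) as the methyltransferase and Nop56 and Nop58 as its scaffold. Fbl was at 9.08, 8.95 and 8.95 on day 0 and at 9.78, 9.73 and 9.83 on day 1, a rise of 0.78 ± 0.07 (adjusted p = 3.20e-05). Nop58 rose by 0.69 ± 0.07 and Nop56 by 0.64 ± 0.07. Snu13, the core protein of the particle that stands in the wider list, rose by 0.44 ± 0.09. Box H/ACA particles turn uridines into pseudouridines. Their protein Gar1 was at 7.24, 7.07 and 7.11 on day 0 and at 8.38, 8.22 and 8.49 on day 1. Gar1 rose 2.33-fold (1.22 ± 0.09, adjusted p = 1.27e-05), the second largest change of the factors. Nhp2, another core protein of the particle, rose by 0.86 ± 0.06, from 9.21 ± 0.06 (SD, n = 3) to 10.08 ± 0.01 (SD, n = 3). Nop10, the small core protein that stands in the wider list, rose by 0.28 ± 0.06. The enzyme of the class, Dkc1, is among the genes not analysed here.

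The small subunit processome is the large assembly that folds the first part of the precursor RNA and prepares its early cleavages. All 13 measured genes of this group rose, 9 of them at least 1.5-fold and 2 at least 2-fold, with a median change of 0.92. Utp18 was at 6.73, 7.003 and 6.84 on day 0 and at 8.08, 8.13 and 8.03 on day 1. No day 1 value of Utp18 came within 1 log2 unit of a day 0 value, and the rise was 1.22 ± 0.08 (2.33-fold, adjusted p = 8.92e-06). Imp3, a protein that bridges the guide snoRNA and the precursor RNA, was at 9.88, 9.97 and 9.85 on day 0 and at 10.87, 11.15 and 11.02 on day 1 (1.11 ± 0.08). Imp4, its partner in the same complex, changed by 0.47 ± 0.10 (adjusted p = 0.00452), from 7.60, 7.78 and 7.52 to 8.25, 8.04 and 8.01. The 95% confidence interval from limma was 0.24 to 0.69 for Imp4 and 0.92 to 1.31 for Imp3, so these intervals did not overlap. Such intervals cover the variation between arrays only, and probes of different genes are not calibrated against each other.

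The first subcomplex to bind the precursor RNA was represented by Heatr1, Utp15, Wdr43 and Wdr75, which did not rise evenly. Heatr1 was at 7.39, 7.48 and 7.25 on day 0 and at 8.44, 8.21 and 8.33 on day 1 (0.96 ± 0.09), and Utp15 rose by 0.96 ± 0.07. Wdr43 was at 8.76, 8.66 and 8.58 on day 0 and at 9.05, 8.95 and 9.04 on day 1, a change of 0.35 ± 0.07 (adjusted p = 0.00396). Wdr75 rose by 0.34 ± 0.07 (adjusted p = 0.00413). Utp4, a further protein of this subcomplex from the wider list, was at 0.17 ± 0.06 and missed the threshold (adjusted p = 0.0579). The 95% confidence interval was 0.80 to 1.12 for Utp15 and 0.19 to 0.51 for Wdr43, so these did not overlap, although probes of different genes are not calibrated against each other. Wdr3, which belongs with Utp18 to the next subcomplex, rose by 0.48 ± 0.07, against 1.22 for Utp18 and 0.74 ± 0.07 for Tbl3, its partner from the wider list. Among the other genes of the group, Rcl1 rose by 1.00 ± 0.08 and the scaffold gene Nop14 by 0.92 ± 0.07. Rrp9, a protein of the guide snoRNP, rose by 0.94 ± 0.10, with day 0 arrays that spread from 6.73 to 7.09. The helicase gene Ddx10 was at 6.64, 6.55 and 6.48 on day 0 and at 7.47, 7.44 and 7.45 on day 1 (0.90 ± 0.06). Nat10 rose by 0.84 ± 0.06.

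Later factors of the small subunit held both the largest rise and the smallest called one. Nob1, the endonuclease that makes the final cut of the small subunit RNA, was at 8.10, 8.17 and 8.10 on day 0 and at 9.56, 9.56 and 9.50 on day 1. Nob1 rose 2.67-fold (1.42 ± 0.06, adjusted p = 7.16e-07), a change with rank 283 among the 14324 genes when ordered from the largest rise. Tsr1, a GTPase-like factor of the same late particle, was at 8.30, 8.34 and 8.21 on day 0 and at 9.07, 9.11 and 9.16 on day 1 (0.83 ± 0.06). Ltv1, an export and maturation factor of the small subunit, was at 7.96, 8.08 and 7.95 on day 0 and at 8.37, 8.19 and 8.24 on day 1. The lowest day 1 value of Ltv1 lay only just above the highest day 0 value, and the change of 0.27 ± 0.07 passed the threshold (adjusted p = 0.0163). Under quantile normalization Ltv1 missed the threshold (0.17, adjusted p = 0.0967). It also missed it in fits that omitted day 0 replicate 1 (adjusted p = 0.0504), day 0 replicate 3 (adjusted p = 0.0541) or day 1 replicate 1 (adjusted p = 0.0510).

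**Figure D3:**
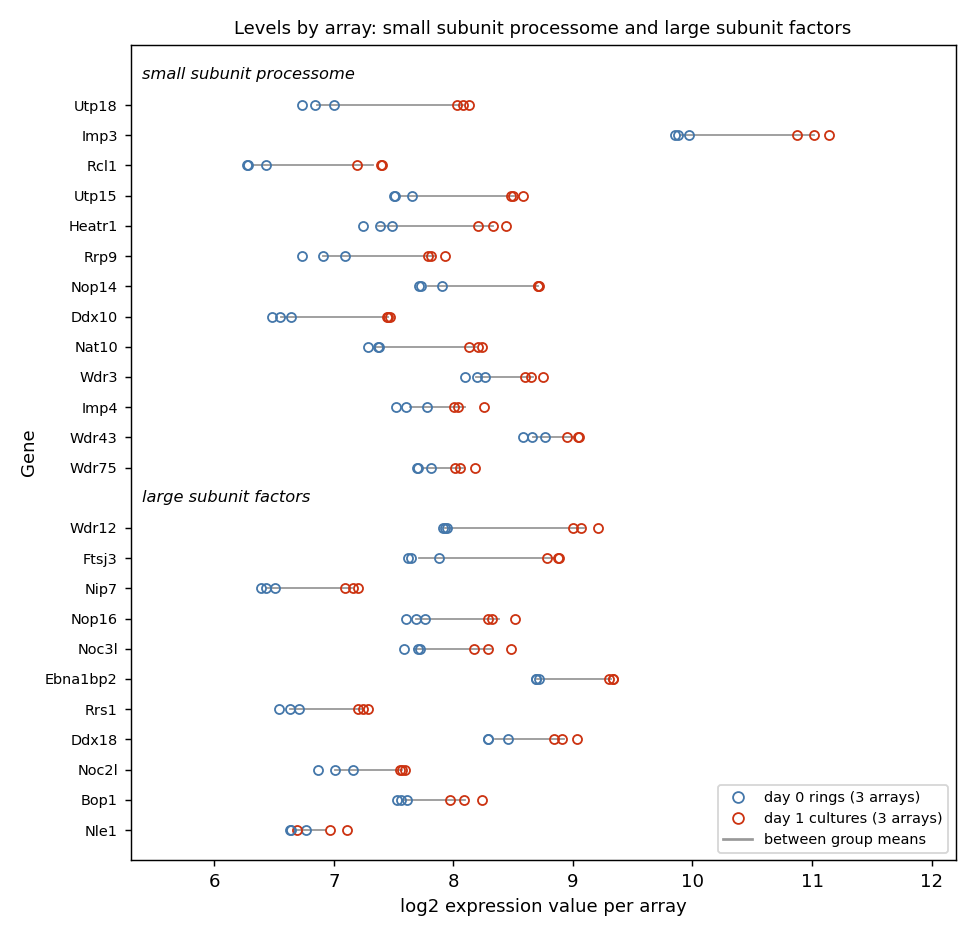
Log2 expression value in each array (horizontal axis) of the small subunit processome genes and the large subunit factors, with 3 day 0 arrays in blue and 3 day 1 arrays in red and a line between the group means. The colours overlap for Nle1 alone, in which a day 1 array at 6.70 lies under a day 0 array at 6.77.

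Of the 11 measured large subunit factors 10 rose, 7 of them at least 1.5-fold and 2 at least 2-fold, with a median change of 0.62. Wdr12 and Bop1 are partners in a complex needed for the processing of the large subunit RNA. Wdr12 was at 7.95, 7.93 and 7.91 on day 0 and at 9.21, 9.06 and 9.003 on day 1 (1.16 ± 0.07, adjusted p = 5.28e-06). Bop1 was at 7.61, 7.53 and 7.56 on day 0 and at 8.24, 7.97 and 8.09 on day 1 (0.53 ± 0.08, adjusted p = 7.68e-04). The 95% confidence intervals of the changes, 1.00 to 1.32 for Wdr12 and 0.35 to 0.72 for Bop1, did not overlap. Here too the intervals leave out any difference in response between the probes of the genes. Ftsj3, a methyltransferase of the precursor RNA, rose by 1.13 ± 0.08, from 7.65, 7.88 and 7.62 to 8.78, 8.87 and 8.88.

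The remaining large subunit factors that passed the threshold lay between 0.56 and 0.71. Nip7, which acts in precursor RNA processing, rose by 0.71 ± 0.06 and Nop16 by 0.69 ± 0.08. The related factors Noc3l and Noc2l, which accompany large subunit precursors through the nucleus, rose by 0.64 ± 0.09 and 0.56 ± 0.08. Rrs1 helps to bring in the particle that holds the smallest ribosomal RNA. It was at 6.71, 6.63 and 6.55 on day 0 and at 7.24, 7.29 and 7.202 on day 1 (0.61 ± 0.07). Ebna1bp2, a nucleolar scaffold protein, was at 8.71, 8.69 and 8.69 on day 0 and at 9.33, 9.30 and 9.33 on day 1, and its change of 0.62 ± 0.05 had the smallest standard error of the factors. The helicase gene Ddx18 rose by 0.58 ± 0.08. Second rows of Nip7 and Nop16 changed by 0.31 and 0.08, less than the rows used, while that of Ebna1bp2 changed by 0.61. For Nip7 the second row was the brighter one on day 0 (6.61 against 6.44), so the choice by highest mean favoured the row that rose more. Nle1, a factor bound by the remodelling enzyme that matures the large subunit, was at 6.77, 6.64 and 6.63 on day 0 and at 7.11, 6.70 and 6.97 on day 1. Its change was 0.24 ± 0.11 (95% confidence interval -0.0045 to 0.49, adjusted p = 0.0976), and day 1 replicate 2 lay within the day 0 values. Without that array the change was 0.36 (adjusted p = 0.0123), and Nle1 also passed with median centring (adjusted p = 0.0485) and among genes above the median mean (adjusted p = 0.0317). Nle1 entered that last set only through its day 1 level, since its day 0 mean of 6.68 lay under the median of gene means (6.79). Its pass there is therefore no separate support for a rise.

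Other genes of ribosome assembly, from a wider list of 132 of which 108 were measured, were higher as well. In the same fit 97 of the 108 rose and 1 fell, with a median change of 0.46. Of all genes 27.6% rose and 20.7% fell, and of those brighter than the median gene 44.4% rose. By class, 31 of 33 other small subunit genes rose, 44 of 47 other large subunit genes, 7 of 9 snoRNP assembly genes, 9 of 10 genes of the nuclear exosome, which trims the precursor RNA, and 6 of 9 other polymerase I genes. Exosc5, an exosome subunit, rose most (1.51 ± 0.08), followed by Aatf (1.42 ± 0.09), Utp14a (1.29 ± 0.11) and Zfp593 (1.24 ± 0.09). The gene that fell was Taf1a, a subunit of the factor that brings polymerase I to the ribosomal DNA promoter, at -0.33 ± 0.07 (adjusted p = 0.00676). In the same class Ubtf (-0.12 ± 0.06, adjusted p = 0.113) and Taf1c (0.07 ± 0.06, adjusted p = 0.403) missed the threshold, while Taf1d rose by 1.09 ± 0.14. The direction was thus shared by most measured genes of the pathway, less so among the other polymerase I genes. The median was lower than in the 42 factors. Whether the medians differ was not tested.

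The genes of the cytosolic ribosomal proteins, which these factors assemble into the subunits, rose in 66 of 69 measured cases by limma and fell in 0 (67 and 0 at an unadjusted p under 0.05), with a median change of 0.38 and a highest one of 0.74. The largest rises were those of Rps18 (0.74 ± 0.07), Rpl39 (0.71 ± 0.14), Rps12 (0.71 ± 0.08) and Rpl36a (0.68 ± 0.06). There were 13 among the 69 that rose 1.5-fold or more, against 33 among the 42 nucleolar factors, and 0 and 7 that rose 2-fold or more. For reference, 27.6% of all genes rose and 10.9% rose 1.5-fold or more. Among genes brighter than the median gene these shares were 44.4% and 17%. With quantile normalization 40 of the 69 ribosomal protein genes rose, against 40 of the 42 factors. Ribosomal protein genes have many processed copies in the genome that can share probe signal, and whether these rows do was not tested.

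**Figure D4:**
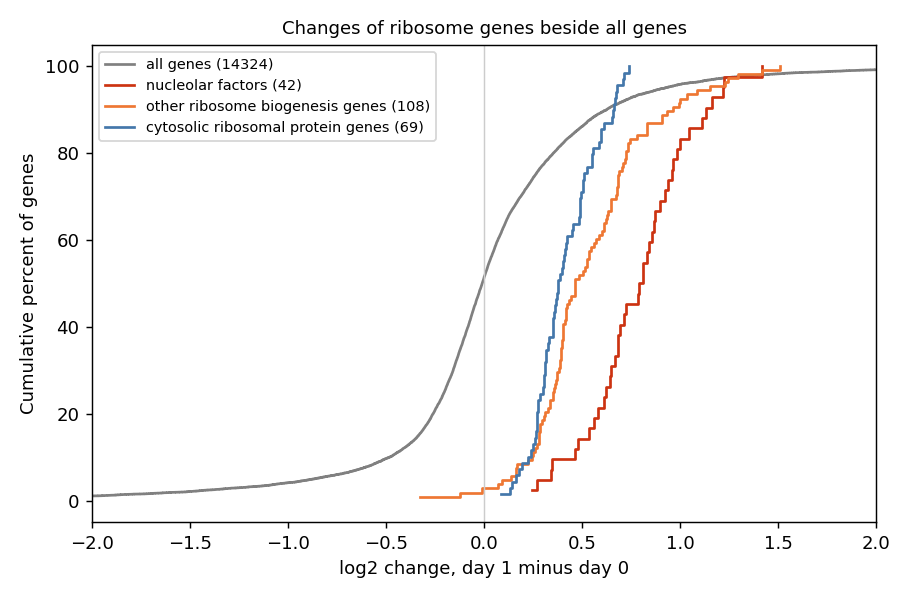
Cumulative percent of genes (vertical axis) against the log2 change from day 0 to day 1 (horizontal axis, shown from -2 to 2) for all 14324 genes, the 42 nucleolar factors, 108 other ribosome biogenesis genes and 69 cytosolic ribosomal protein genes. The curves of the ribosome genes lie to the right of that of all genes, with medians of 0.38 (ribosomal proteins), 0.46 (other biogenesis genes) and 0.80 (nucleolar factors) against -0.01.

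Many markers of the cell types in the wall changed at the same time, as did 48.3% of all genes. Of all genes 27.6% rose and 20.7% fell, and of those above the median mean 44.4% rose and 22.9% fell. The counts in the short marker lists were not tested against these shares. Contractile smooth muscle markers, which identify the main cell of the aortic media, were high on day 0, with Myh11, the smooth muscle myosin heavy chain, at 13.03 ± 0.03 (SD, n = 3). All 9 measured ones fell, and their mean log2 level was 11.38 to 11.47 in the day 0 arrays and 8.29 to 8.43 in the day 1 arrays. Of 10 macrophage markers 6 rose and 2 fell, with mean levels of 8.25 to 8.28 on day 0 and 8.73 to 8.93 on day 1. The largest change was that of Cd68, which rose by 1.70 ± 0.06, while Csf1r (-0.46 ± 0.08) and Cd163 (-0.40 ± 0.07) fell. Of 8 endothelial markers 6 rose and 2 fell (7.89 to 8.10 on day 0, 8.19 to 8.31 on day 1). Of 9 fibroblast markers 3 rose and 5 fell (10.31 to 10.42, then 9.95 to 9.99). The adipocyte markers fell in 7 of 10 cases (6.46 to 6.61, then 5.64 to 5.89), erythroid markers in 3 of 5 (5.52 to 5.78, then 4.70 to 4.81) and lymphocyte markers in 1 of 8 (4.48 to 4.63, then 4.36 to 4.44). The part of these shifts in the rise of the nucleolar factors was not tested.

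**Figure D5:**
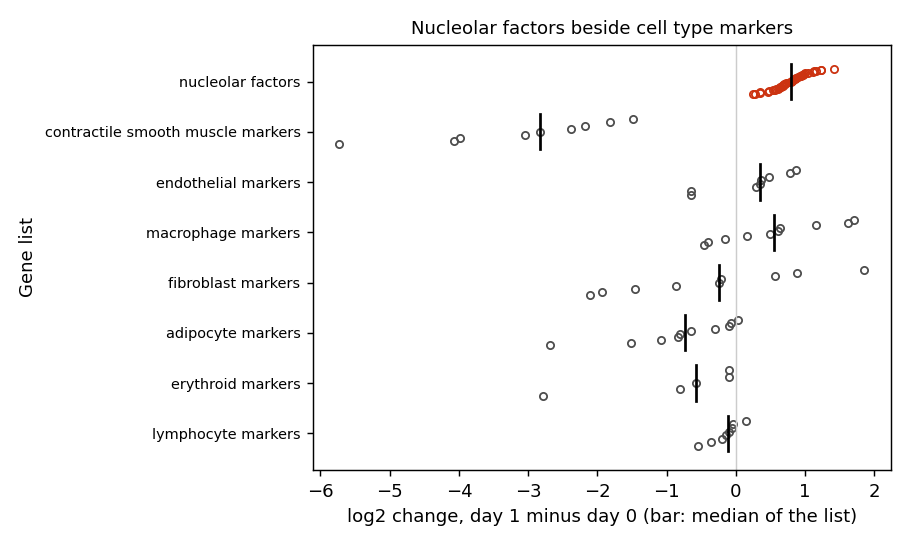
Log2 change from day 0 to day 1 (horizontal axis) of the 42 nucleolar factors and of each measured cell type marker, 1 point per gene, with a bar at the median of each list. The factors lie between 0.24 and 1.42, the contractile smooth muscle markers lie between -5.73 and -1.49, and the macrophage, endothelial and fibroblast lists lie on both sides of 0.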

How the data were processed

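The deposited table holds 27342 rows of log2 expression values for 6 arrays. That the deposited values are log2 was judged from their range, up to 14.16. Per the labels' protocols, 200 ng of total RNA was labelled for Affymetrix whole-transcript arrays. Limma is listed in the submitters' processing notes, without its role. How the authors corrected, normalized and summarised the signals is not stated in these sources. Values were used without further scaling, and changes are relative to the bulk of genes. Rows with exactly 1 annotated symbol (15097) were named, with symbols updated by gene ID through a RefSeq gene table (GRCr8, names only), giving 14324 genes; the brightest of several rows was kept. Annotated and updated symbols gave the factors the same rows.

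Day 1 was set against day 0 in R 4.3.3 by limma 3.58.1 (lmFit, eBayes, no block or filter, two-sided, Benjamini-Hochberg over all genes, threshold 0.05), tested on simulated data. The number of arrays limits the precision. Lists were described by counts and medians, without a set test. The factors and lists were chosen with earlier results of these data known. All 42 factors could be named; of other lists, up to 4 genes with the largest rises or falls and the most changed or brightest markers. Polr1d, Polr1f, Polr1g, Polr1h, Snu13, Nop10, Utp4 and Tbl3 were named outside this rule, after their values were seen, as partners of listed factors. Csf1r and Cd163 were also named outside it, as the macrophage markers that fell. Ubtf, Taf1c and Taf1d were named outside it too, after their values were seen, to show other polymerase I genes beside Taf1a. For promoters, the outermost start of each gene was taken. Protein features, also planned, were not analysed here.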

Additional observations from a re-analysis of the deposited data

How the results depend on the processing

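Each count was recomputed under 17 alternatives, of which 6 left out 1 array. Of 714 values of single factors, 685 kept their direction and their side of the threshold, 26 no longer passed, 3 newly passed and 0 reversed. Of the 26, 22 arose when the test was made against a 1.5-fold change (treat), and the other 4 concerned Ltv1. With that test, which asks for a larger change by construction, 1550 genes were called, 19 factors rose (19 also at 1.5-fold or more), 15 genes of the wider list rose and 0 fell, and 0 ribosomal protein genes rose (1 at an unadjusted p under 0.05). Quantile normalization gave a median change of 0.70 for the factors, 2 wider genes that fell and 40 ribosomal protein genes that rose; the cause was not tested. Median centring gave a median of 0.85. Leaving out 1 array gave medians from 0.76 to 0.82, with 40 to 42 factors risen. Same-numbered arrays were not treated as pairs in the main fit. Their deviations from the group means correlated at 0.01, 0.02 and 0.04, which cannot show whether pools shared animals. With the replicate number as a block 41 factors still rose and 6686 genes were called against 6915. The 3 arrays per group and the unknown normalization limit the size of each change. All alternatives started from the same deposited values, so they cannot show how far that normalization shaped size or direction.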
